A study of Mus musculus with 24 samples.

Results

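The genes of glycolysis and of the hypoxia response were followed in mouse Neuro2A neuroblastoma cells, beginning from a fall of Gapdh in transfected cells. The members were chosen by a list of 38 symbols and kept where the gene had 0.5 CPM (counts scaled to a common library size) or more in 3 or more samples, which left 36 of the 38, out of 13901 genes that passed the same filter and 39253 genes in the table. The drop of Gapdh is part of how the set was selected, so its values in transfected against untransfected cells are given as a description, without a test, and members are counted there without it, as 35 others. Counts out of 36 in the other comparisons include Gapdh, and its own call in them is not read as a test. The members that failed the filter were Ldhb, a lactate dehydrogenase subunit, which reached at most 0.0609 CPM in any sample, and Car9, a carbonic anhydrase, which reached at most 0.195 CPM. The lowest member inside the filter was Egln3, at 0.551 to 1.89 CPM before TMM scaling, and all 36 kept members reached the minimum in all 24 samples.

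Glycolysis converts glucose to pyruvate in the cytosol, and cells that rely on it export the lactate made from that pyruvate. Hypoxia-inducible factor (HIF) is a transcription factor whose alpha subunit is marked for destruction by prolyl hydroxylases when oxygen is present. When HIF accumulates it raises the transcription of glucose transporters, most glycolytic enzymes and a set of genes that adapt the cell to low oxygen, and proliferating tumour cells such as neuroblastoma often express these genes at a high level.

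The study asked how specifically different RNA-silencing agents act across the transcriptome when aimed at ataxin-2. The RNA-seq samples formed 8 groups of 3 independent biological replicates. In 6 groups the cells were lipofected with a plasmid that expressed an effector from the CAG promoter and a crRNA from the U6 promoter, and RNA was taken 48 hr later. The effectors were RfxCas13d, an RNA-cutting CRISPR nuclease, HiFi-RfxCas13d, a variant of it engineered for less collateral cutting, and DiCas7-11, an RNA-targeting effector of a different CRISPR type. Each was paired with a crRNA to mouse ataxin-2 (mATXN2) or with a non-targeted crRNA (NTG). The remaining groups were cells left untransfected and an ASO group, exposed to an antisense oligonucleotide against ataxin-2, for which the route of delivery is not given in the sources used here. No group received lipofection alone or a control oligonucleotide, so an effect of the reagent, the plasmid and the expressed effector cannot be told apart against untransfected cells, and neither can an effect of the ASO sequence and of its delivery.

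Total counts were 12665725 to 22504999 per sample, with the ASO samples highest, from 21874644. Atxn2, the targeted gene, averaged 123 CPM (SD 1.78, n = 3) in untransfected and 52.0 CPM (SD 2.77, n = 3) in ASO cells, and for each effector its mean was lower with mATXN2 than with NTG, at 114 against 122 CPM for RfxCas13d, 101 against 119 for HiFi-RfxCas13d and 103 against 118 for DiCas7-11. Markers of the sympathetic neuroblast lineage summed to 959 to 1056 CPM per sample and 9 of 9 passed the filter. Among markers of other cells, the fibroblast list summed to 8.10 to 8.48 CPM in untransfected cells and 5.16 to 8.18 elsewhere with Col1a2 and Lum at or near 0, and the glial list to 14.3 to 19.2 with Sox10 near 0. The leukocyte list, 3 genes of which only Cd68 passed the filter, summed to 0.936 to 2.28 CPM with the ASO and to at most 0.627 elsewhere, with Ptprc and Lyz2 at or near 0. Their part in the results was not tested. The libraries of DiCas7-11 with NTG differed more among themselves than those of any other group: the chi-square statistic over its degrees of freedom was 3.22 to 5.33 between its pairs and 1.68 to 2.53 in the other 7 groups. Because these are bulk samples, fewer cells that express a gene and less of its RNA per cell cannot be told apart.

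The promoters of 4 members are shown because the motif that HIF binds has a short fixed core, and because these genes span the responses described below: Bnip3 and Ankrd37 fell strongly, Gapdh fell mildly and Hif1a, which encodes the alpha subunit itself, was not called against untransfected cells. Each line holds the 250 bases before the transcription start, 5′ to 3′ on the gene's own strand, from RefSeq on GRCm38.p6, with the core motif ACGTG or GCGTG, and its reverse complement CACGT or CACGC, in capitals. The windows are chr7:138909507-138909756 (minus strand) for Bnip3, chr8:45999851-46000100 (minus) for Ankrd37, chr6:125165774-125166023 (minus) for Gapdh and chr12:73907617-73907866 (plus) for Hif1a.
Bnip3: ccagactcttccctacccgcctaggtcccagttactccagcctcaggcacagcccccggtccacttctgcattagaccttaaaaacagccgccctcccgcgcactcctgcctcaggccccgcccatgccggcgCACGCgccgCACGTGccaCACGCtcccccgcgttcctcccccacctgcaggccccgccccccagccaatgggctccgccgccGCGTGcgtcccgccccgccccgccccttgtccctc
Ankrd37: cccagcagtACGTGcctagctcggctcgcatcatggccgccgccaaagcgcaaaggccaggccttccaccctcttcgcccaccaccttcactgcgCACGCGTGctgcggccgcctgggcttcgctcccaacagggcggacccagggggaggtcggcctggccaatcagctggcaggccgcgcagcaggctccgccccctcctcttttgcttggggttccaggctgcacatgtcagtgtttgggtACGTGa
Gapdh: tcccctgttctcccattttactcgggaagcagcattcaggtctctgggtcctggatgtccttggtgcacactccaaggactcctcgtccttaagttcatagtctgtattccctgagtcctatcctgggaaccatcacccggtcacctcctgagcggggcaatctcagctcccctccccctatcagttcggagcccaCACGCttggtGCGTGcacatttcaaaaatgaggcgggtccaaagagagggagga
Hif1a: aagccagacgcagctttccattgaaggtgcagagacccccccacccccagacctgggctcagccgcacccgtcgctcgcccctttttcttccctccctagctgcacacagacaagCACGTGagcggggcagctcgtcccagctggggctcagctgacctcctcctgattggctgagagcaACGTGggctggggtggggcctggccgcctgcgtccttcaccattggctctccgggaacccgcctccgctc
Bnip3 held 5 matches on both strands together, Ankrd37 4, Hif1a 3 and Gapdh 2, where CACGTG counts once on each strand. Of the 36 members 33 had a promoter in the table, and 29 of those (87.9%) held at least 1 match in at least 1 of their promoters. A match was held by 38.6% of all 32851 promoters listed there, and by 6503 of the 10839 genes that passed the filter and had a promoter. Eno2, Gpi1, Mif and Tpi1 held none in these windows. A match is a description of these letters and not evidence of binding.

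Averaged over the 6 transfected groups, the fall of Gapdh was shared by many of its pathway neighbours. Of the 35 other members 18 fell and none rose against untransfected cells (edgeR quasi-likelihood test, Benjamini-Hochberg adjusted p under 0.05), where 14.1% of all genes tested were called lower and 13.3% higher. The median log2 fold change of the 35 was -0.16, against a median near 0 (-0.01) over all genes, 29 of the 35 were negative, and 21 lay below the value of Gapdh, which was -0.13, or 8.67% lower.

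**Figure D1:**
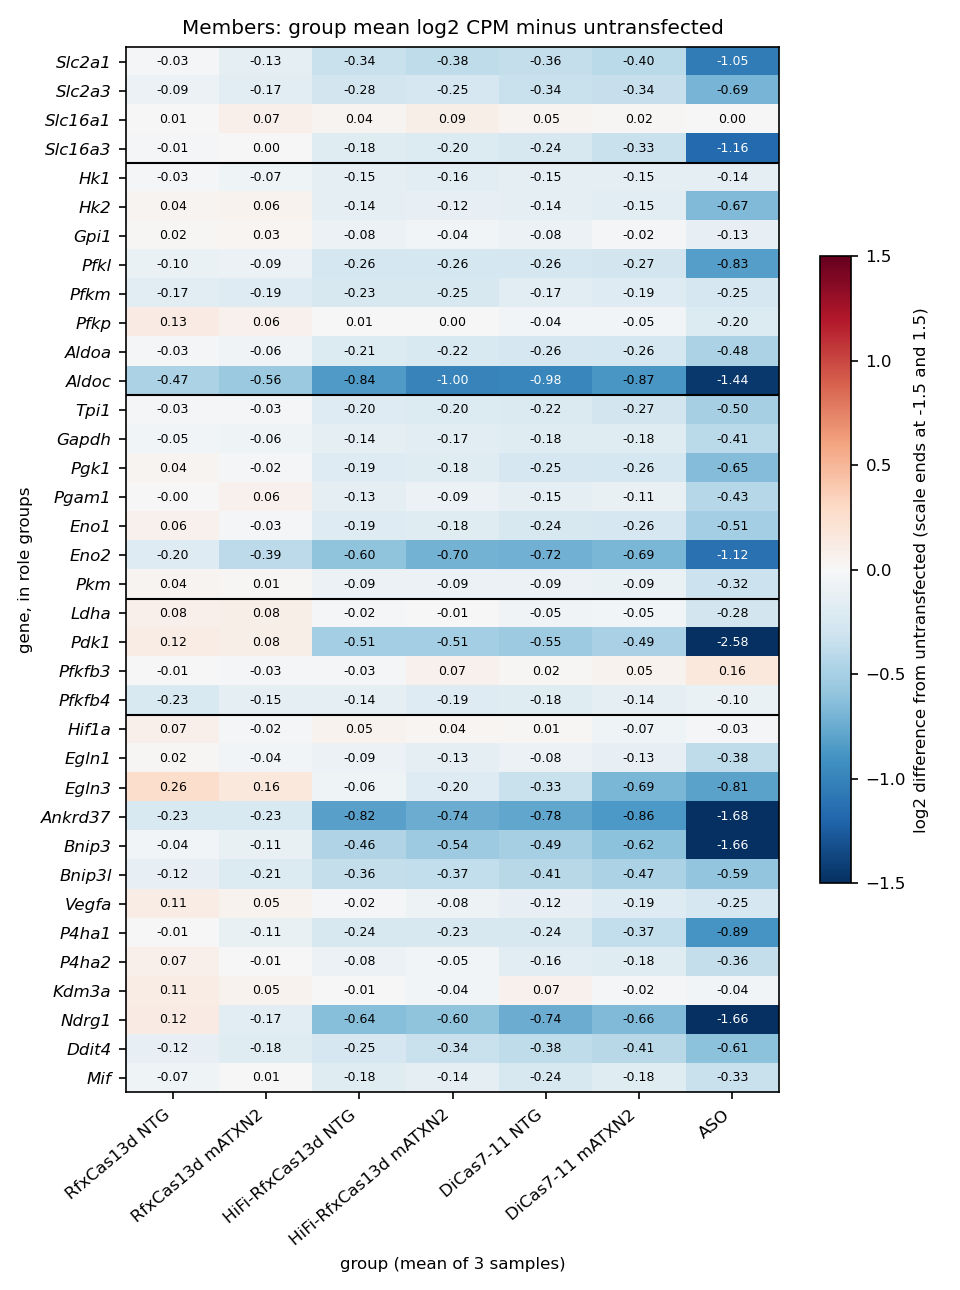
Heat map of the mean log2 CPM of each member in 7 groups minus its mean in untransfected cells (columns, 3 samples each), with members in rows by role from transporters at the top to HIF-pathway genes at the bottom. The RfxCas13d columns stay close to 0 for most members, the HiFi-RfxCas13d and DiCas7-11 columns are lower, and the ASO column is lowest, where the median of the 35 members other than Gapdh is -0.50.

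Gapdh, the dehydrogenase that opens the energy-yielding stage of glycolysis, measured 2246, 2234 and 2169 CPM in untransfected cells. With RfxCas13d it measured 2132, 2147 and 2161 CPM with NTG and 2135, 2109 and 2122 with mATXN2. With HiFi-RfxCas13d the values were 2046, 1986 and 1994 CPM with NTG and 1973, 1924 and 2006 with mATXN2, and with DiCas7-11 they were 2078, 1856 and 1925 with NTG and 1986, 1912 and 1971 with mATXN2. All 18 transfected samples lay below all 3 untransfected ones, and the RfxCas13d samples lay above all samples of the other 2 effectors, which did not exceed 2078 CPM. As a description, the log2 fold change of Gapdh against untransfected cells was -0.05 with RfxCas13d NTG, -0.14 with HiFi-RfxCas13d NTG and -0.18 with DiCas7-11 NTG, or 3.13%, 9.37% and 11.9% lower.

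Fewer of the other members fell with RfxCas13d than with the other effectors. With RfxCas13d NTG against untransfected cells 2 of the 35 other members fell (all genes called lower: 5.66%) and their median was -0.00 on the log2 scale. With HiFi-RfxCas13d NTG 20 of 35 fell (all genes: 10.6%) with a median of -0.19, and with DiCas7-11 NTG 22 of 35 fell (all genes: 10.8%) with a median of -0.24. None rose in any of the 3 comparisons by the main edgeR fit, and they share their untransfected samples. Pfkp, at 0.13 with RfxCas13d NTG and not called there, was called higher under all 8 alternatives that kept every replicate, among them edgeR with RLE factors (adjusted p = 0.0423) and DESeq2 (adjusted p = 0.0250). Without replicate 2 of DiCas7-11 NTG, whose members were the lowest of that group, 14 of 35 were called with that effector and the median was -0.17, so these values set no order between DiCas7-11 and HiFi-RfxCas13d.

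Members are taken below in the order of the pathway, for all transfected groups against untransfected cells unless another comparison is named. Of the 4 transporters, 2 fell. Slc2a1, the widespread glucose transporter GLUT1, fell by 0.27 on the log2 scale (SE 0.084, edgeR adjusted p = 0.0146), a call that was lost without replicate 1 of the untransfected cells (adjusted p = 0.205 by edgeR). Slc2a3, the neuronal glucose transporter GLUT3, measured 276 to 293 CPM in untransfected and 205 to 273 CPM in transfected samples, with a median of 239, so the groups did not overlap. It fell by 0.25 (SE 0.032, edgeR adjusted p = 1.14e-06). The lactate exporter Slc16a3 (MCT4), at -0.16, and its relative Slc16a1 (MCT1), at 0.05, were not called.

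Of the 8 genes from hexokinase to aldolase 5 fell, and Aldoc gave the largest fold change of any member. Aldoc, the brain isoform of aldolase, measured 17.9, 13.5 and 14.4 CPM in untransfected cells, 10.4, 11.2 and 11.1 with RfxCas13d NTG and 10.9, 10.1 and 9.77 with RfxCas13d mATXN2. It measured 8.80, 7.55 and 8.80 CPM with HiFi-RfxCas13d NTG, 7.02, 7.15 and 8.38 with HiFi-RfxCas13d mATXN2, 9.65, 5.36 and 8.46 with DiCas7-11 NTG and 8.68, 7.79 and 8.17 with DiCas7-11 mATXN2. Every transfected sample lay below every untransfected one, and the RfxCas13d samples lay above all samples of the other 2 effectors. Aldoc fell by 0.80 (SE 0.096, edgeR adjusted p = 3.30e-07), or 42.7%. It was also the larger of the pair of members called with RfxCas13d NTG, where it fell by 0.48 (SE 0.127, edgeR adjusted p = 0.0125), although without untransfected replicate 1 or without RfxCas13d NTG replicate 1 that call was lost (edgeR adjusted p = 0.117 and 0.0527).

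The other member called with RfxCas13d NTG was Pfkm, the muscle-type subunit of phosphofructokinase, the committed step of glycolysis. Pfkm measured 150, 149 and 158 CPM in untransfected cells, 138, 134 and 132 with RfxCas13d NTG, 132, 129 and 128 with HiFi-RfxCas13d NTG and 131, 136 and 139 with DiCas7-11 NTG. All 18 transfected samples were lower than the untransfected ones, and the effectors overlapped each other. Pfkm fell by 0.17 with RfxCas13d NTG (SE 0.031, edgeR adjusted p = 0.000404), by 0.23 with HiFi-RfxCas13d NTG and by 0.17 with DiCas7-11 NTG. The platelet-type subunit Pfkp did not share this, at 0.02 over all transfected groups, while the liver-type Pfkl fell by 0.21 (SE 0.049, edgeR adjusted p = 0.00184). Hexokinase 1 (Hk1, which phosphorylates glucose on entry) fell by 0.12 and the ubiquitous aldolase Aldoa by 0.17, and hexokinase 2 (Hk2) at -0.08 and glucose-6-phosphate isomerase (Gpi1) at -0.03 were not called.

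From triose phosphate to pyruvate, 4 of the 6 enzymes other than Gapdh fell. Eno2, the neuronal enolase, measured 83.5, 69.2 and 69.2 CPM in untransfected cells, 63.1, 64.0 and 65.7 with RfxCas13d NTG and 55.4, 55.7 and 57.3 with RfxCas13d mATXN2. With HiFi-RfxCas13d it measured 51.5, 47.9 and 45.9 CPM with NTG and 45.5, 41.6 and 48.5 with mATXN2, and with DiCas7-11 51.5, 36.5 and 46.9 with NTG and 51.9, 39.2 and 46.9 with mATXN2. Again no transfected sample reached the lowest untransfected one, and no HiFi-RfxCas13d or DiCas7-11 sample reached the lowest RfxCas13d one. Eno2 fell by 0.56 (SE 0.069, edgeR adjusted p = 5.19e-07). Triose phosphate isomerase (Tpi1) fell by 0.16, and so did, by 0.14 each, phosphoglycerate kinase Pgk1 and the common enolase Eno1, both of which lost their call without untransfected replicate 1 (edgeR adjusted p = 0.0595 and 0.0721). Phosphoglycerate mutase (Pgam1) at -0.07 and pyruvate kinase (Pkm) at -0.05 were not called.

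At the end of the pathway none of the 4 genes was called. Ldha, which reduces pyruvate to lactate, had a log2 fold change of 0.00 (SE 0.030) and Pfkfb3, which makes the allosteric activator of phosphofructokinase, one of 0.01. Pdk1, a kinase that inhibits pyruvate dehydrogenase and a classical HIF target, had -0.31 (SE 0.169, edgeR adjusted p = 0.183), with values from 4.17 to 12.96 CPM in transfected samples around the untransfected 9.16 to 11.7 CPM.

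Of the 13 members grouped as the HIF pathway and its targets, 7 fell. Ankrd37, a small ankyrin-repeat protein induced by HIF, measured 16.4, 15.2 and 13.9 CPM in untransfected cells, 12.5, 12.6 and 13.5 with RfxCas13d NTG, 8.03, 7.6 and 10.1 with HiFi-RfxCas13d NTG and 10.7, 7.02 and 8.89 with DiCas7-11 NTG. The transfected samples ran from 5.81 to 14.3 CPM with a median of 9.96, and 17 of the 18 lay below all untransfected ones, and the exception was an RfxCas13d mATXN2 sample. Ankrd37 fell by 0.61 (SE 0.116, edgeR adjusted p = 0.000206).

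Ndrg1, a stress-responsive gene linked to growth arrest, measured 17.1, 17.3 and 13.9 CPM in untransfected cells, 18.1, 17.8 and 16.5 with RfxCas13d NTG, 10.9, 8.89 and 10.9 with HiFi-RfxCas13d NTG and 14.0, 6.73 and 9.14 with DiCas7-11 NTG. Here the RfxCas13d NTG samples overlapped the untransfected ones, and the 18 transfected samples ran from 6.73 to 18.1 CPM with a median of 11.0, 12 of them below all 3 untransfected ones. Ndrg1 fell by 0.46 (SE 0.125, edgeR adjusted p = 0.00624), and Bnip3, a mitophagy receptor whose promoter is shown above, by 0.38 (SE 0.10, edgeR adjusted p = 0.00507). Without untransfected replicate 2 both calls were lost (edgeR adjusted p = 0.0678 and 0.0510), and Ndrg1 also without replicate 1 (0.0539).

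Bnip3l, a second mitophagy receptor, fell by 0.33, and Ddit4, an inhibitor of mTORC1 signalling, by 0.28, both with no overlap between transfected and untransfected samples. P4ha1, a collagen prolyl hydroxylase, fell by 0.20, and the cytokine gene Mif fell by 0.14 (edgeR adjusted p = 0.0437), a call that did not hold without any 1 of the untransfected replicates (edgeR adjusted p = 0.172, 0.171 and 0.0620 without replicate 1, 2 and 3) and in 14 of 28 alternatives in all. Vegfa, Egln1, Egln3, P4ha2, Kdm3a and Hif1a were not called. Counting samples in place of a model, 6 of the 35 other members (Aldoc, Eno2, Pfkm, Slc2a3, Bnip3l and Ddit4) had all 18 transfected samples below all 3 untransfected ones, which 4.74% of all genes had. Of the 18 members that fell, 12 stayed called under each of the 28 alternatives tried, and without untransfected replicate 1 13 were called.

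**Figure D2:**
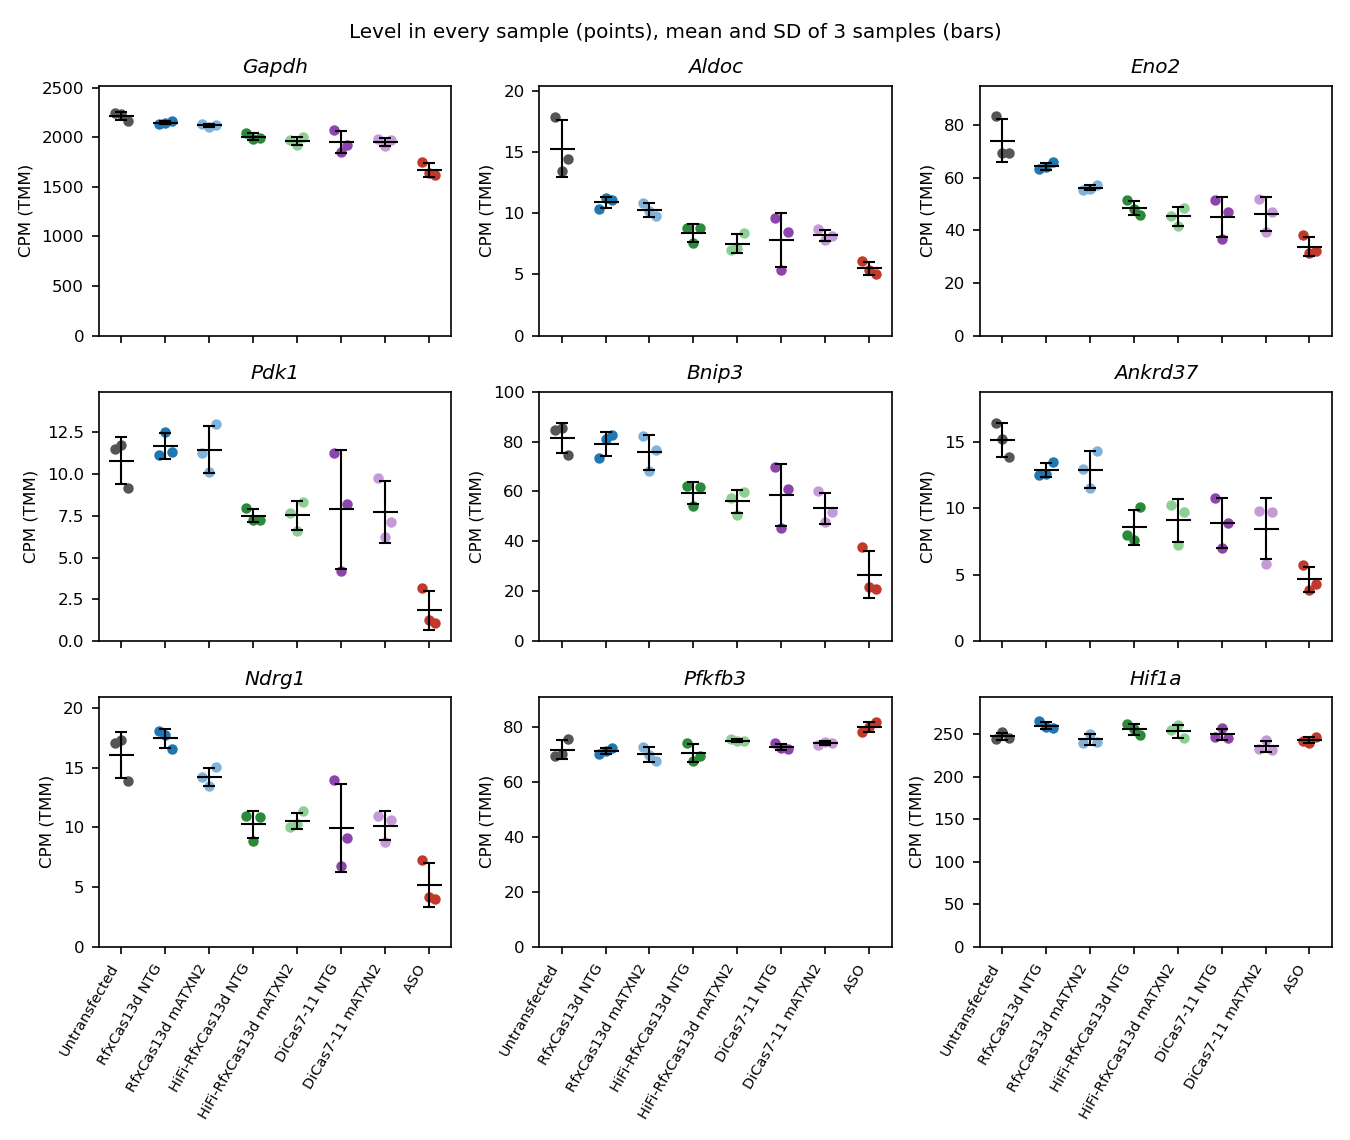
Level of 9 members in each of the 24 samples (TMM-scaled CPM on linear axes from 0, points), with the mean and SD of each group of 3 (black bars). Aldoc, Eno2, Ankrd37 and Ndrg1 step down from the RfxCas13d groups to the HiFi-RfxCas13d and DiCas7-11 groups and again to the ASO, Pdk1 is lowest with the ASO at 1.07 to 3.17 CPM, and Hif1a stays between 232 and 265 CPM throughout.

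The ASO gave the widest fall. Against untransfected cells 31 of 36 members fell (all genes called lower: 21.7%), Pfkfb3 alone rose (all genes called higher: 21.0%), and the median over the members was -0.49 on the log2 scale against -0.00 over all genes. In 31 of 36 members all ASO samples lay below all untransfected ones, which was so for 26.1% of all genes. Of the 32 calls 31 stayed under each of the 14 alternatives. Gapdh is counted in these numbers of members and of calls, and in the median. It measured 1753, 1645 and 1621 CPM with the ASO, a log2 fold change of -0.41, or 24.5% lower. The untransfected samples it is set against also entered the choice of members. Its own call is therefore not read as a test, and its value is given as a description.

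Pdk1 fell most. It measured 3.17, 1.26 and 1.07 CPM with the ASO against 11.5, 11.7 and 9.16 CPM in untransfected cells, a fall by 2.56 (SE 0.273, edgeR adjusted p = 1.05e-08), or 83.0%. The ASO samples did not overlap any other group, and replicate 1 was the highest of the 3, as it was for Bnip3 and Ndrg1. The same library was highest over the members as a whole. The median log2 deviation of the members from their means over all samples was -0.19 in ASO replicate 1, -0.37 in replicate 2 and -0.35 in replicate 3.

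Bnip3 measured 37.7, 21.5 and 20.7 CPM with the ASO against 84.5, 85.3 and 74.7 in untransfected cells and fell by 1.61 (SE 0.143, edgeR adjusted p = 3.16e-10). Ankrd37 measured 5.74, 3.88 and 4.33 CPM and fell by 1.71 (SE 0.167, edgeR adjusted p = 2.00e-09), and Ndrg1 measured 7.26, 4.14 and 4.02 CPM and fell by 1.65 (SE 0.179, edgeR adjusted p = 1.38e-08). The ASO samples of Bnip3 and Ankrd37 lay below every other sample of the series, and those of Ndrg1 lay below all others except DiCas7-11 NTG replicate 2, at 6.73 CPM, which was below the highest ASO sample.

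All 8 genes from hexokinase to aldolase fell with the ASO. So did all 7 from triose phosphate to pyruvate, where Gapdh is counted as a description. Aldoc again led, at 6.08, 5.32 and 5.04 CPM, with a fall by 1.48 (SE 0.134, edgeR adjusted p = 4.77e-10), then Eno2, at 38.0, 31.5 and 31.9 CPM, with a fall by 1.13. Pfkl fell by 0.83, Hk2 by 0.66, Pgk1 by 0.65, Eno1 by 0.51, Tpi1 by 0.50, Aldoa by 0.48, Pgam1 by 0.42 and Pkm by 0.32. Hk1 and Gpi1, at -0.14 and -0.13, gave the smallest falls among the enzymes.

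Of the transporters, the lactate exporter Slc16a3 fell by 1.14, from 238 ± 14 CPM to 108 ± 24 (SD, n = 3), Slc2a1 by 1.04 and Slc2a3 by 0.69, whereas Slc16a1 was at 325 ± 6.9 CPM in untransfected and 326 ± 4.2 in ASO cells. Ldha, not called after transfection, fell by 0.27 (SE 0.040, edgeR adjusted p = 1.93e-06). Pfkfb3 measured 78.3, 79.9 and 82.0 CPM with the ASO and 69.6, 70.1 and 75.7 in untransfected cells, so the samples did not overlap, and rose by 0.16 (SE 0.037, edgeR adjusted p = 0.000881). Its relative Pfkfb4 was not called, at -0.10.

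In the HIF group 11 of 13 members fell with the ASO. Besides Ankrd37, Ndrg1 and Bnip3 these were P4ha1 (-0.88), Ddit4 (-0.61), Bnip3l (-0.59), the prolyl hydroxylases Egln3 (-0.96) and Egln1 (-0.38), P4ha2 (-0.37), Mif (-0.34) and the angiogenic factor gene Vegfa (-0.25). Egln3 is the weakest of these calls: it measured 0.869, 0.829 and 0.535 CPM against 1.22, 1.92 and 1.19, and without untransfected replicate 2 its edgeR adjusted p was 0.0810. The histone demethylase Kdm3a, at -0.04, and Hif1a were not called.

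Hif1a mRNA was nearly level across the series. It measured 245, 252 and 246 CPM in untransfected cells, 242, 240 and 247 with the ASO, 265, 258 and 258 with RfxCas13d NTG, 262, 256 and 250 with HiFi-RfxCas13d NTG and 247, 257 and 246 with DiCas7-11 NTG. The RfxCas13d NTG samples lay above all untransfected ones without a call. The DiCas7-11 mATXN2 samples, at 233, 244 and 232 CPM, lay below all untransfected ones, and the ASO samples overlapped the untransfected ones. The log2 fold change was 0.01 (SE 0.022) over all transfected groups and -0.03 (SE 0.028) with the ASO. HIF alpha is regulated largely through protein stability, and no protein was measured in these samples.

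The ASO and transfection were then compared directly. In ASO against transfected cells 29 of 36 members were lower (all genes: 21.6%) and Pfkfb3 alone was higher, by 0.15 (all genes called higher: 20.1%), with a median over the members of -0.32. The differences were largest for Pdk1 at -2.25 (SE 0.228, edgeR adjusted p = 4.42e-09), Bnip3 at -1.24, Ndrg1 at -1.19 and Ankrd37 at -1.10. Gapdh is counted in the 29 and in the median, and its own value, -0.28, is given as a description. Hk1 and Pfkm, which fell after transfection, differed from the ASO samples by -0.02 and -0.05 and were not called. Of the 30 calls 27 stayed under each of the 28 alternatives, while Egln3 lost its call without ASO replicate 3 (edgeR adjusted p = 0.0624) Gpi1 without ASO replicate 2 (0.0505) and Mif under the coding length correction, at -0.11 in place of -0.20 (0.0528).

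**Figure D3:**
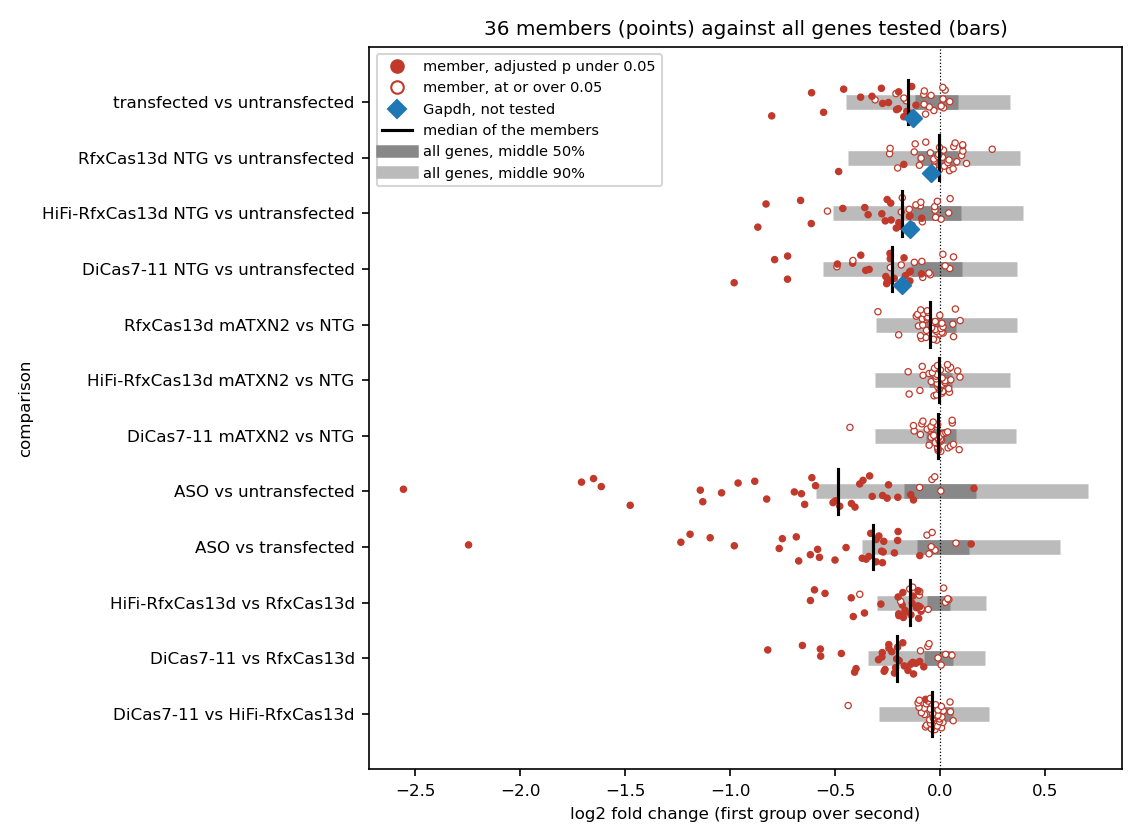
Log2 fold change of the 36 members in 12 comparisons (points, filled where the adjusted p was under 0.05; diamonds mark Gapdh where it was not tested), with the median of the members (black line) and the middle 50% and 90% of all 13901 genes (dark and light grey bars). Left of the light bar lie 16 of the 36 members for the ASO against untransfected cells, with Pdk1 at -2.56, and 7 for each of the other effectors against RfxCas13d. The members centre near 0 for mATXN2 against NTG, and Gapdh is among the points in each comparison without a diamond.

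The effectors differed from one another with no untransfected sample in the comparison. Taken over both crRNAs, 24 of 36 members were lower with HiFi-RfxCas13d than with RfxCas13d (all genes called lower: 1.96%), with a median of -0.14, and 29 of 36 were lower with DiCas7-11 than with RfxCas13d (all genes: 6.06%), with a median of -0.21. None was higher in either, and Gapdh is counted in both. These comparisons share the RfxCas13d samples. Kdm3a was at -0.11 with HiFi-RfxCas13d and -0.06, not called, with DiCas7-11. The difference between those effectors was 0.05 (SE 0.027, edgeR adjusted p = 0.344).

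All 7 enzymes from triose phosphate to pyruvate were lower with both effectors than with RfxCas13d, Gapdh among them. The values of Gapdh in transfected cells entered the choice of members, so its differences are given as a description. It was lower by 0.10 with HiFi-RfxCas13d (SE 0.021) and by 0.13 with DiCas7-11 (SE 0.021). Pgk1 was lower by 0.20 and 0.27, Eno1 by 0.20 and 0.26, Tpi1 by 0.17 and 0.21 and Eno2 by 0.36 and 0.40, in that order of effectors. From hexokinase to aldolase 6 of 8 and 7 of 8 were lower, with Aldoc at -0.41 in both. For HiFi-RfxCas13d the calls of Pfkl and Gpi1 were lost in 11 and 10 of 19 alternatives, and without HiFi-RfxCas13d NTG replicate 2 those of Pfkl, Gpi1 and Aldoc were lost together (edgeR adjusted p = 0.108, 0.0795 and 0.0511), which left 3 of 8.

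The largest differences were in HIF targets. With HiFi-RfxCas13d against RfxCas13d these were Pdk1 at -0.62 (SE 0.158, edgeR adjusted p = 0.0256), Ndrg1 at -0.60 (SE 0.119, edgeR adjusted p = 0.00362), Ankrd37 at -0.55 (SE 0.114, edgeR adjusted p = 0.00537) and Bnip3 at -0.42 (SE 0.095, edgeR adjusted p = 0.00995). With DiCas7-11 they were Egln3 at -0.82 (SE 0.186, edgeR adjusted p = 0.00352), Ndrg1 at -0.66, Ankrd37 at -0.57 and Pdk1 at -0.57 (SE 0.158, edgeR adjusted p = 0.0172). The values behind Pdk1 were 11.1, 12.5 and 11.3 CPM with RfxCas13d NTG, 11.2, 10.1 and 13.0 with RfxCas13d mATXN2, 7.96, 7.27 and 7.27 with HiFi-RfxCas13d NTG, 7.67, 6.59 and 8.33 with HiFi-RfxCas13d mATXN2, 11.3, 4.17 and 8.21 with DiCas7-11 NTG and 9.78, 6.26 and 7.14 with DiCas7-11 mATXN2.

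For Pdk1 the HiFi-RfxCas13d samples lay below all RfxCas13d samples, while 1 DiCas7-11 NTG sample reached into their range. Bnip3 measured 73.4, 80.9 and 82.7 CPM with RfxCas13d NTG, 82.1, 68.2 and 76.6 with RfxCas13d mATXN2, 62.1, 54.2 and 62.0 with HiFi-RfxCas13d NTG and 57.4, 50.7 and 59.9 with HiFi-RfxCas13d mATXN2, with no overlap between the effectors. The mATXN2 samples of Ndrg1 were 14.2, 13.4 and 15.01 CPM with RfxCas13d, 10.0, 10.2 and 11.3 with HiFi-RfxCas13d and 11.0, 8.75 and 10.6 with DiCas7-11, again with RfxCas13d above both others. Egln3 measured 1.66, 1.75 and 1.79 CPM with RfxCas13d NTG and 1.5, 1.68 and 1.63 with RfxCas13d mATXN2, against 0.950, 1.13 and 1.18 with DiCas7-11 NTG and 0.702, 0.958 and 0.786 with DiCas7-11 mATXN2, so those effectors did not overlap.

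Across the 19 alternatives 15 of the 24 calls against HiFi-RfxCas13d and 25 of the 29 against DiCas7-11 never changed. The call of Pdk1 for HiFi-RfxCas13d was lost in 8 of the 19, 6 of them without a single library (edgeR adjusted p of 0.0531 to 0.0799 without RfxCas13d NTG replicate 2, RfxCas13d mATXN2 replicate 1 or 3, HiFi-RfxCas13d NTG replicate 2 or 3 or HiFi-RfxCas13d mATXN2 replicate 2). Ldha lost its call in 12 of the 19, Slc2a1 in 10 and Kdm3a in 8. The count over all members was 16 without replicate 2 of HiFi-RfxCas13d NTG, and 16 without replicate 2 of HiFi-RfxCas13d mATXN2. For DiCas7-11, Pdk1 was not called without DiCas7-11 NTG replicate 2, DiCas7-11 mATXN2 replicate 2 or RfxCas13d mATXN2 replicate 3 (edgeR adjusted p = 0.0543, 0.0511 and 0.0503), nor by DESeq2 (DESeq2 adjusted p = 0.0841). Gpi1 lost its call with only the groups compared (edgeR adjusted p = 0.0904) and without any of several single libraries. Without DiCas7-11 NTG replicate 2 Gpi1, Pfkl and Slc2a1 were not called (edgeR adjusted p = 0.140, 0.0507 and 0.0527).

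DiCas7-11 and HiFi-RfxCas13d differed in 1 member, Hif1a, which was lower with DiCas7-11 by 0.069 (SE 0.020, edgeR adjusted p = 0.0316), or 4.69%, where 4.05% of all genes were lower. The call of Hif1a was lost in 9 of 19 alternatives, 8 of them without a single library (edgeR adjusted p of 0.0561 to 0.101 without HiFi-RfxCas13d NTG replicate 1 or 2, HiFi-RfxCas13d mATXN2 replicate 1 or 2, DiCas7-11 NTG replicate 1 or 3 or DiCas7-11 mATXN2 replicate 1 or 3). The count was 0 to 5 over the left-out libraries, with the 5 without DiCas7-11 NTG replicate 1. The median over the members was -0.04. For the other 35 members no difference was called, which does not show that the effectors act alike.

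**Figure D4:**
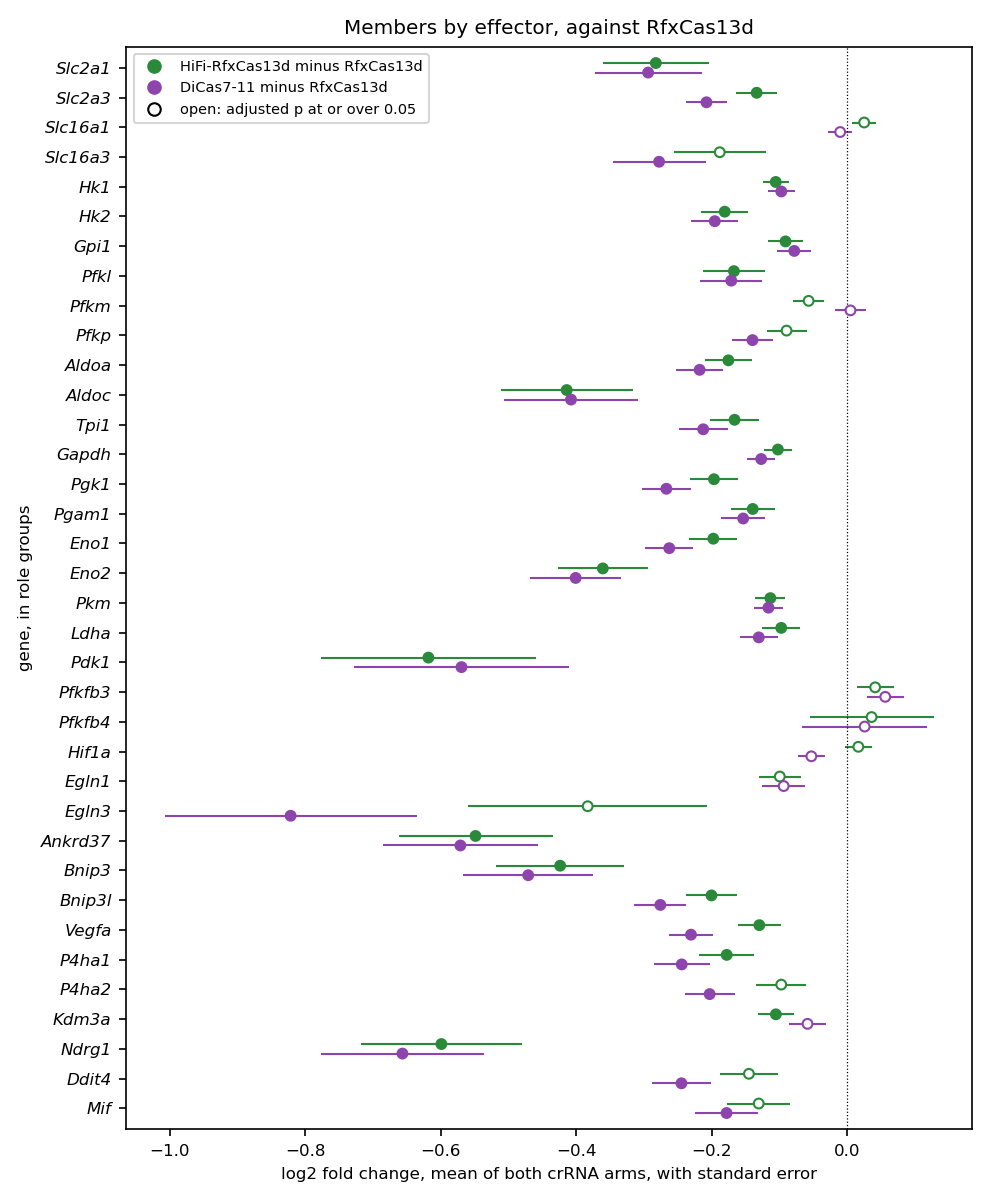
Log2 fold change of each of the 36 members with HiFi-RfxCas13d (green) and DiCas7-11 (purple) against RfxCas13d, over both crRNAs, with its standard error (horizontal lines); filled points have an adjusted p under 0.05. Most points lie left of 0 for both effectors, with the largest differences for Egln3, Ndrg1, Pdk1 and Ankrd37, and Slc16a1, Pfkfb3, Pfkfb4 and Hif1a lie near 0.

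The crRNA to ataxin-2 was compared with the non-targeted one within each effector. With mATXN2 against NTG 0 of 36 members were called for RfxCas13d (all genes called in either direction: 1.39%), 0 for HiFi-RfxCas13d (all genes: 0.295%) and 0 for DiCas7-11 (all genes: 0.942%), by edgeR. At an unadjusted p under 0.05 the counts were 2 lower and 1 higher for RfxCas13d, 1 higher for HiFi-RfxCas13d and 3 lower for DiCas7-11. Of all genes, 6.62% were lower and 7.14% higher at that threshold for RfxCas13d, 3.12% and 4.32% for HiFi-RfxCas13d and 7.46% and 6.58% for DiCas7-11, and the shares of the members were near or below these. DESeq2 called 1 member for RfxCas13d, Hif1a at -0.10 (DESeq2 adjusted p = 0.0475), and 0 for the others, and limma-trend called 0 for all 3. The medians were -0.05, -0.00 and -0.01, and Gapdh was at -0.02, -0.03 and 0.00.

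The members furthest from 0 in these comparisons were Ndrg1 for RfxCas13d, at -0.30 (SE 0.160, edgeR adjusted p = 0.423), and Egln3 for DiCas7-11, at -0.43 (SE 0.284, edgeR adjusted p = 0.547). Ndrg1 measured 18.1, 17.8 and 16.5 CPM with NTG and 14.2, 13.4 and 15.01 with mATXN2 there, so the samples did not overlap although the test missed the threshold. Eno2 showed the same for RfxCas13d, at -0.20 (SE 0.092, edgeR adjusted p = 0.334), and passed when only those groups were fitted (edgeR adjusted p = 0.0155). For DiCas7-11, leaving out NTG replicate 1 called 2 members higher with mATXN2, Gpi1 at 0.12 and Mif at 0.20.

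Other genes of the same pathways were counted from further lists, which, like the members, were chosen with earlier results of these data known. Of 29 further HIF-pathway genes and targets that passed the filter, 12 fell and 3 rose after transfection and 19 fell and 3 rose with the ASO, with medians of -0.14 and -0.39, where 14.1% of all genes fell and 13.3% rose after transfection and 21.7% fell and 21.0% rose with the ASO. Adm, the vasodilator adrenomedullin, fell with the ASO by 1.87 (SE 0.37, edgeR adjusted p = 0.000138), the glycogen-targeting subunit Ppp1r3c by 1.30, the lysyl hydroxylase Plod2 by 0.73 and the oxidoreductase Ero1a by 0.53. The 3 that rose were Egln2, Hif1an and Cited2. The prolyl hydroxylase Egln2 rose by 0.30, the asparaginyl hydroxylase Hif1an by 0.26 and Cited2, a competitor for the HIF coactivator, by 0.22, while the related prolyl hydroxylases Egln1 and Egln3, both members, fell by 0.38 and 0.96. Of 15 further glycolysis genes, many of them tissue-specific isoforms, 3 fell and 1 rose after transfection and 4 fell and 3 rose with the ASO, with a median of 0.02 there, shares close to those of all genes.

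Gapdh is widely used as a reference in quantitative PCR, and the study used it so for ataxin-2. In transfected cells its qPCR set a targeting crRNA against NTG with the same effector, where no member, Gapdh included, was called here. The percents below are against untransfected cells, which is a different comparison. Set beside 13 other genes in common use, the group mean of Gapdh as a percent of untransfected cells was 96.9 and 95.8 with RfxCas13d (NTG, then mATXN2), 90.6 and 88.8 with HiFi-RfxCas13d, 88.1 and 88.3 with DiCas7-11 and 75.5 with the ASO. Actb, beta-actin, ran similarly at 94.9, 94.9, 93.1, 90.6, 85.9, 83.4 and 74.9 in the same order, and Tubb5 reached 80.8 with the ASO. Pgk1, itself a member, was at 63.9 with the ASO. Ppia, cyclophilin A, stayed within 97.3 to 105 in every group, and B2m was highest with RfxCas13d NTG, at 142. Of the 13 genes 4 fell (Actb, Tubb5, Pgk1 and Rplp0) and 4 rose after transfection, and with the ASO 6 fell and 2 rose, beside the 14.1% and 13.3% of all genes after transfection and the 21.7% and 21.0% with the ASO.

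**Figure D5:**
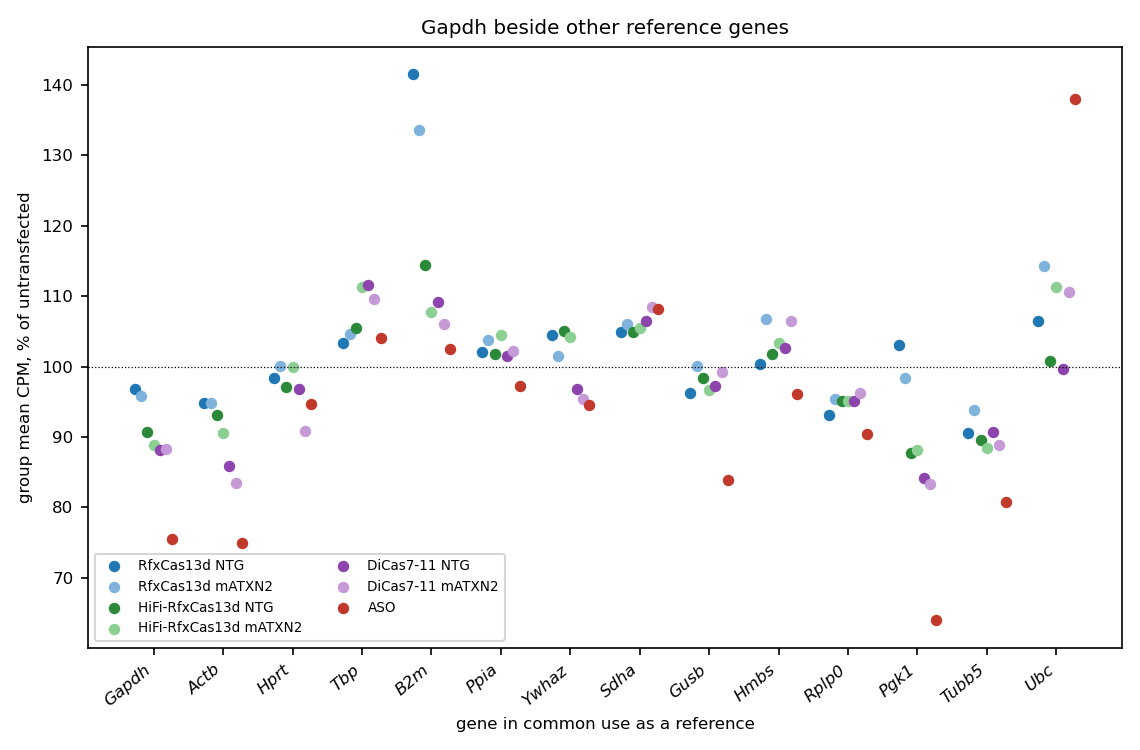
Group mean CPM as a percent of untransfected cells for Gapdh and 13 other reference genes in the 7 other groups (points coloured by group, vertical axis from 60% and not from 0). Gapdh, Actb and Pgk1 are lowest with the ASO, at 75.5, 74.9 and 63.9%, and Ppia stays near 100% throughout.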

How the data were processed

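RNA-seq of 24 Neuro2A samples was analysed. Per the methods of the study, the authors mapped single-end reads from a stranded mRNA library with Salmon 1.5.2 to NCBI transcripts with a GRCm39 decoy, corrected sequence and GC bias, and summarised to genes with tximport (lengthScaledTPM). The table the authors deposited holds these expected counts for each gene, summed by gene and neither normalized nor whole, and they were rounded here. Column headers call the control arm EV and the targeting arm G12, while the sample titles read NTG and G10. The sources used here do not explain the different names. The columns were matched to the NTG and mATXN2 samples by effector, arm and replicate. Totals were 12665725 to 22504999 per sample, so counting error is small for most members and largest for Egln3.

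Levels are CPM with TMM factors. The main test was edgeR 4.0.16 (quasi-likelihood, all 8 groups in 1 fit, R 4.3.3) over the 13901 genes that reached 0.5 CPM in 3 or more samples, with Benjamini-Hochberg adjustment within each comparison and a threshold of 0.05. Transfected cells are the mean of 6 groups, and effectors were compared over both crRNAs. A standard error is the log2 fold change over the square root of its F statistic. Every kept member could be named, with values in each sample for Gapdh and for called members, or for the 4 largest falls and 4 largest rises where over 8 were called. The members and lists were chosen with earlier results of these data known. Alternatives were RLE factors, DESeq2 1.42.0, limma-trend (limma 3.58.1, prior count 3), no filter, only the groups compared, a replicate block, a coding length correction (GENCODE M21), each replicate left out, and the limma procedure of the study adjusted over 10 comparisons, whose list of comparisons is assumed. Scripts were tested on simulated data. Promoter sequences are from RefSeq. The promoters of Slc2a3, Ndrg1 and Bnip3l were not used here.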

Additional observations from a re-analysis of the deposited data

Results flagged for a closer look

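Differences between treatments that share a contrast were tested directly, and those past the threshold are listed here with no explanation. The 36 members include Gapdh here. The response to the ASO differed from that to transfection in 30 of 36 members (all genes: 21.6% lower and 20.1% higher), with log2 differences (ASO minus transfected) of -2.25 for Pdk1, -1.24 for Bnip3, -1.19 for Ndrg1, -1.10 for Ankrd37 and 0.15 for Pfkfb3. The response to HiFi-RfxCas13d differed from that to RfxCas13d in 24 of 36 members, all lower (all genes called lower: 1.96%), with -0.62 for Pdk1, -0.60 for Ndrg1, -0.55 for Ankrd37 and -0.42 for Bnip3. The response to DiCas7-11 differed from that to RfxCas13d in 29 of 36 members, all lower (all genes called lower: 6.06%), with -0.82 for Egln3, -0.66 for Ndrg1, -0.57 for Ankrd37 and -0.57 for Pdk1. DiCas7-11 and HiFi-RfxCas13d differed in 1 member, Hif1a, at -0.069, where 4.05% of all genes were called lower. That call was lost when any of several single libraries was left out, so it does not set the members apart from all genes. Groups held 3 samples, so no search for single outlying samples was made.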

How the results depend on the processing

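With 1 replicate left out in turn, the number of members called was 13 to 22 for transfected against untransfected cells (18 of 35 with all replicates), 2 to 3 for RfxCas13d NTG (2), 16 to 19 for HiFi-RfxCas13d NTG (20) and 14 to 27 for DiCas7-11 NTG against untransfected cells (22). It was 0 for RfxCas13d and HiFi-RfxCas13d and 0 to 2 for DiCas7-11 in mATXN2 against NTG (0 each), 31 to 32 for the ASO against untransfected (32) and 29 to 32 against transfected cells (30). Between effectors it was 16 to 24 for HiFi-RfxCas13d (24) and 26 to 30 for DiCas7-11 (29) against RfxCas13d, and 0 to 5 for DiCas7-11 against HiFi-RfxCas13d (1). The cause of the following changes was not tested. Without a filter on low counts 7 members were called for RfxCas13d NTG, 2 for RfxCas13d mATXN2 and 8 for DiCas7-11 against HiFi-RfxCas13d. With only the groups compared these counts were 6, 1 and 0. DESeq2 gave 1 for RfxCas13d mATXN2 and 2 for DiCas7-11 against HiFi-RfxCas13d, where limma-trend also gave 2. The coding length correction gave 4 for RfxCas13d NTG, and the procedure of the study gave 1 each for RfxCas13d and DiCas7-11 mATXN2, which was Hif1a in both.

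Same-numbered replicates did not deviate together: over 84 pairs of libraries the correlations were -0.0824 to 0.0813. They share only a number. With the replicate number as a block, 6 members (3 lower, 3 higher) were called for RfxCas13d NTG and 3 for DiCas7-11 against HiFi-RfxCas13d.

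For the 190 results of single genes that were called, or named without a call, 3669 values under alternatives were computed, of which 3492 kept direction and call, 170 lost the call, 3 gained it and 4 changed sign, all near 0. Over all 250 pairs of a member and a comparison that were not called, 125 of 4065 alternative values were called, in 52 pairs. The values that changed sign were Ldha after transfection (-0.0056 without DiCas7-11 NTG replicate 1 and -0.012 without untransfected replicate 3, in a range of -0.012 to 0.026 over left-out replicates) and Slc16a1 with the ASO (-0.015 without untransfected replicate 1 and -0.0058 without ASO replicate 2, in a range of -0.015 to 0.015). The median over all genes stayed within 0.01 of 0 under TMM and RLE. Depth limits Egln3 most.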

Other observations

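Genes next to glycolysis were counted too, beside 14.1% of all genes lower and 13.3% higher after transfection and 21.7% lower and 21.0% higher with the ASO. Of 17 citric acid cycle genes, 3 fell and 4 rose after transfection and 10 fell and 3 rose with the ASO, with medians of -0.01 and -0.09, so the falls with the ASO were above the share of all genes and the other counts were near it. Idh3g, a regulatory subunit of isocitrate dehydrogenase, fell by 0.14 after transfection and by 0.29 with the ASO, while the catalytic subunit Idh3a rose by 0.13 and by 0.10. Of 11 genes of pyruvate entry and pyruvate dehydrogenase, 1 fell and 4 rose after transfection and 4 fell and 1 rose with the ASO. Dld, the dehydrogenase subunit that this complex shares with others, rose by 0.10 after transfection (SE 0.024, edgeR adjusted p = 0.00204) and fell by 0.57 with the ASO (SE 0.032, edgeR adjusted p = 2.77e-14). The mitochondrial pyruvate carrier gene Mpc1 rose by 0.24 after transfection and its partner Mpc2 by 0.27 with the ASO.

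Of 7 pentose phosphate genes, 2 fell and 1 rose after transfection and 2 fell and 2 rose with the ASO, which at this size of list is not set apart from all genes. Tkt, transketolase, fell by 0.11 and by 0.21, and Pgd, which makes NADPH, rose by 0.17 and by 0.16. These comparisons share the untransfected samples.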
